A study of Homo sapiens with 12 samples.

Results

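The genes described here are 33 listed genes of homologous recombination, the Fanconi anaemia pathway and mismatch repair, with the checkpoint kinases that act with them. The cells were HT29, a human colon cancer line with mutant p53 that the study describes as sensitive to methotrexate. A probe set was taken for a gene where the platform annotation gave it that gene's symbol and no other. By that rule 29 of the 33 genes were measured, each by 1 probe set, among 18377 genes tested. BRCA2, RBBP8, FANCA and FANCD2 were not analysed here. The 12 arrays formed 4 groups of 3 cultures that the titles call biological replicates. The controls were untreated and correspond to 0 h. The other groups had been kept in 70 nM methotrexate, an antifolate written MTX in the labels, for 8 h, 24 h or 48 h. All cells came from the 1 line, grown in F12 medium with serum. Untreated arrays at the later times were not used here, so treatment and time in culture cannot be told apart.

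Homologous recombination repairs broken or stalled replication forks by copying an intact sister chromatid. The Fanconi anaemia core complex attaches ubiquitin to the FANCI-FANCD2 pair at blocked forks, and this starts the repair of crosslinked DNA. Mismatch repair removes bases that the replicative polymerases paired wrongly, and the kinases ATR and ATM signal stalled forks and broken ends to CHEK1 and CHEK2. Methotrexate inhibits dihydrofolate reductase and so limits the supply of thymidylate and purines for DNA synthesis. Many genes of these pathways are transcribed mainly as cells pass from G1 into S phase.

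The values are on a log2 scale on which the median of the 3 control arrays is 0 for each probe set, so they describe a gene relative to its own control and say nothing of which gene is more abundant. A change was called where limma's Benjamini-Hochberg adjusted p, taken over all 18377 genes and two-sided, was under 0.05. The standard errors (SE) of the 29 genes' differences ran from 0.05 to 0.14 on the log2 scale, and arrays have no read depth, so the number of arrays limits the precision. The smallest difference from control that was called was 0.25 and the largest that was not was 0.37. In bulk RNA of this kind, fewer cells of a type and less RNA per cell cannot be told apart. Arrays of 1 group differed in the general level of these genes. Control replicate 3 was the lowest control array for 25 of the 29 genes, against 44.8% of all genes, and 8 h replicate 1 was the highest 8 h array for 26, against 52.7%. At 48 h, replicate 3 was the lowest array for 25 of the 29 genes, against 36.4% of all genes. The median of the 29 was 0.06 on it, against 0.33 and 0.35 on the other 48 h arrays. That array stood apart over all genes too. Its root mean square difference was 0.208 from replicate 1 and 0.184 from replicate 2, which differed by 0.0941 from each other. Many of the results that rest on one of these arrays, though not all, are given with and without it.

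Together the repair genes lay above control at each time, with the highest median at 8 h. At 8 h, 20 of the 29 were higher and 1 was lower, where 12.1% of all genes were higher and 12% lower. The median difference of the 29 was 0.44 at 8 h, against 0.02 for all genes tested. By 24 h, 15 were higher and 0 lower, where 8.69% of all genes were higher and 8.02% lower, and the median was 0.29, against 0.02 for all genes. For the 0, limma's unadjusted p was under 0.05 for 1 lower gene at 24 h. At 48 h, 13 were higher and 2 lower, where 13% of all genes were higher and 12.3% lower, and the median was 0.23, against 0.01. The 3 comparisons share the same 3 control arrays. The genes were chosen with earlier results of these data known, so their counts beside those of all genes are descriptive only. Leaving out 48 h replicate 3 raised the counts of higher genes to 24 at 8 h, 18 at 24 h and 17 at 48 h. Of these, the 8 h and 24 h counts changed through the estimate of the spread, which all arrays share.

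**Figure D1:**
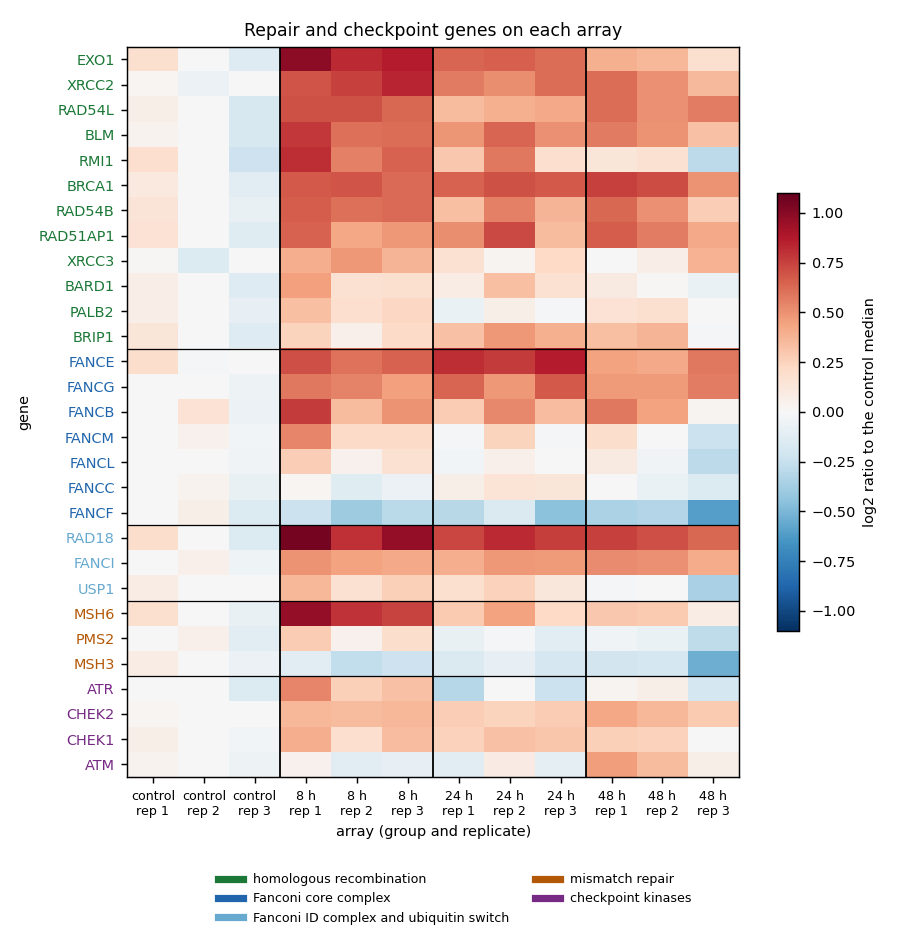
Log2 value of each of the 29 measured genes (rows, grouped by role) on each of the 12 arrays (columns, in time order), relative to the median of the control arrays. Most rows are high in the 8 h columns, and 48 h replicate 3 is paler than the other 48 h arrays.

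Over all 4 groups, 26 of the 29 genes (89.7%) differed by limma's moderated F test, against 38.8% of all genes. FANCC (adjusted p = 0.0528), FANCL (adjusted p = 0.156) and FANCM (adjusted p = 0.0902) were the other 3. The mean of 18 genes was highest at 8 h, that of 5 at 24 h, that of 4 at 48 h and that of 2 in control. The sizes were modest. Of the called genes, 10 were up at least 1.5-fold at 8 h, where 1.19% of all genes were. The 24 h group had 6 such genes, where 0.99% of all genes were, and the 48 h group had BRCA1, RAD54L and RAD18, where 1.9% were. All 8 h arrays lay above all control arrays for 23 of the 29 genes, where this held for 20.7% of all genes. It held at 24 h for 20 of the 29 and 17.8% of all genes, and at 48 h for 13 of the 29 and 17.9% of all genes.

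**Figure D2:**
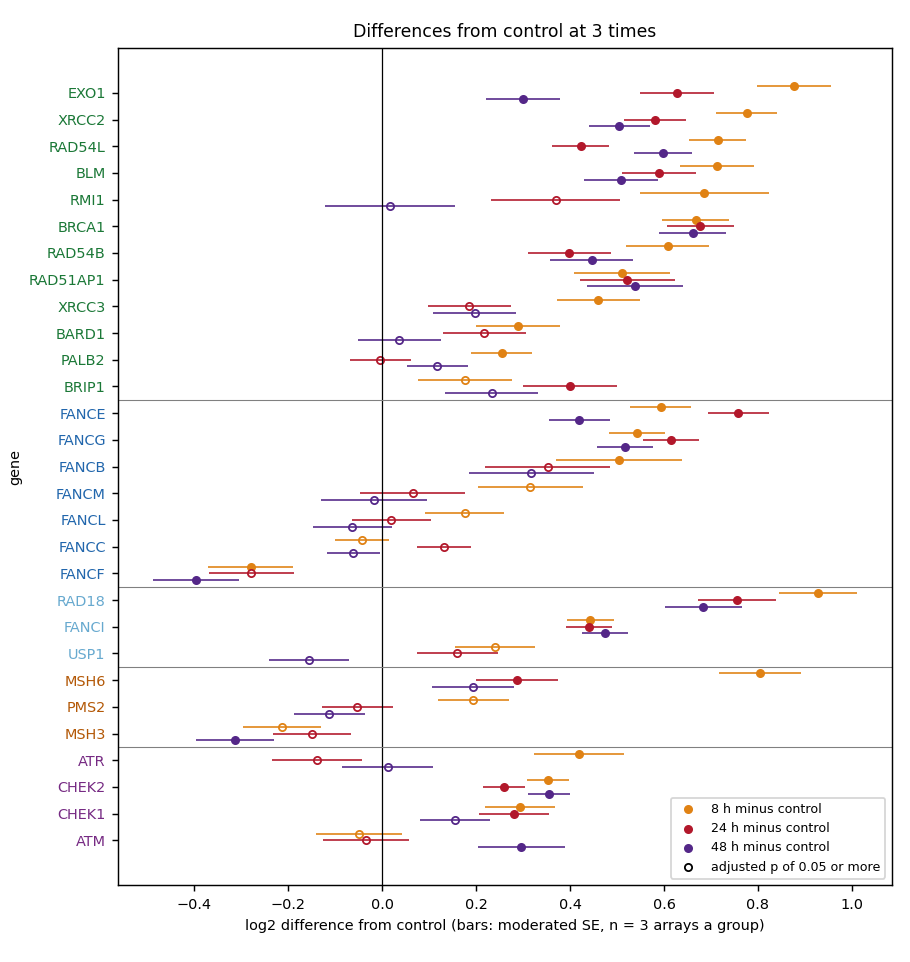
Log2 difference from control for the 29 genes at 8 h, 24 h and 48 h, with bars for the moderated SE and filled points for called differences. RAD18, EXO1 and MSH6 lie furthest to the right at 8 h, and FANCF and MSH3 lie left of 0.

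The promoters of the 4 genes with the largest rise at 8 h (RAD18, EXO1, MSH6 and XRCC2) and of the 2 with the lowest difference (FANCF and MSH3) are shown because most members moved together and because E2F factors control many S-phase genes. Each is the 150 bases before the transcription start in RefSeq's GRCh38.p14, 5′ to 3′ on the gene's strand, from the first start listed for the gene. Capitals mark matches on either strand to the E2F motif (any of TTTCCCGC, TTTCGCGC, TTTGCCGC and TTTGGCGC) or to CCAAT, a site of the factor NF-Y. RAD18 is chr3:8963473-8963622 on the minus strand, EXO1 chr1:241848054-241848203 on the plus strand, MSH6 chr2:47782995-47783144 on the plus strand and XRCC2 chr7:152676142-152676291 on the minus strand. FANCF is chr11:22625824-22625973 on the minus strand and MSH3 chr5:80654502-80654651 on the plus strand.
RAD18: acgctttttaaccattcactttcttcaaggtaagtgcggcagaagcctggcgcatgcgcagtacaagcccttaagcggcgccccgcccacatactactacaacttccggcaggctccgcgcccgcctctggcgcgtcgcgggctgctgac
EXO1: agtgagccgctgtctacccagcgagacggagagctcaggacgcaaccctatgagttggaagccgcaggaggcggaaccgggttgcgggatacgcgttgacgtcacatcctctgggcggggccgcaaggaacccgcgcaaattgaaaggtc
MSH6: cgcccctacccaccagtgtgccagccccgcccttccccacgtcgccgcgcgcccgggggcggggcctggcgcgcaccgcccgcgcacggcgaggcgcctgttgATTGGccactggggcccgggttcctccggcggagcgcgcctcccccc
XRCC2: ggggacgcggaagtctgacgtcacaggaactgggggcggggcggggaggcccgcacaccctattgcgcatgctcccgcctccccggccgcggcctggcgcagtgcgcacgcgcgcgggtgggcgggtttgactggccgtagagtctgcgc
FANCF: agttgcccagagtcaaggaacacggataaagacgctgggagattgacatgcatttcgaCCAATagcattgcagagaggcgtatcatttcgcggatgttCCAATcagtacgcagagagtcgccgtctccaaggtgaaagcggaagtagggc
MSH3: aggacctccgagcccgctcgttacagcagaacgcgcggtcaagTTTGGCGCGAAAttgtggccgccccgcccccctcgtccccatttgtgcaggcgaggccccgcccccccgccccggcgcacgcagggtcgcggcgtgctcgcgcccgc
The stretches hold no E2F match upstream of the 4 genes that rose most, and MSH3 holds 2 overlapping matches, which begin 107 and 103 bases before the start on opposite strands. FANCF has 2 CCAAT matches, and MSH6 has 1 on the reverse strand, 47 bases before the start.

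In 3 of the genes that rose, the match lies just after the start. These 30-base sites were chosen after the values were seen, and capitals mark the E2F match. The EXO1 site is chr1:241848197-241848226 on the plus strand, with the match beginning at base 5 after the start. The MSH6 site is chr2:47783137-47783166 on the plus strand, with the match at base 4, and the XRCC2 site is chr7:152676102-152676131 on the minus strand, with a reverse match at base 22.
EXO1: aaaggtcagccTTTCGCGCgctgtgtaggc
MSH6: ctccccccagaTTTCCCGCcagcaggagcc
XRCC2: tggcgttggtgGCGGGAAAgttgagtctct
A window of 250 bases before to 50 after a start was at hand for 27 of the 29 measured genes, and 10 of them had several starts. The E2F motif was in a window of 7 of the 27 (25.9%): XRCC2, RMI1, EXO1, FANCC, MSH3, MSH6 and PMS2. It was in a window of 3.99% of 27305 genes. CCAAT was found for 59.3% of the 27 and 39.7% of all genes, and the cell cycle homology region (TTTGAA or TTCGAA, either strand) for 14.8% and 19.5%. The 7 genes with the motif include EXO1, MSH6 and XRCC2, which rose at 8 h, MSH3, which fell at 48 h, and FANCC, which was not called at any time against control. A match is a run of letters and was not tested as a binding site.

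The recombination genes rose at 8 h with 1 exception. Of the 12 measured, 11 were higher at 8 h, 8 at 24 h and 7 at 48 h, and 0 were lower, by the unadjusted p as well, with median differences of 0.64, 0.41 and 0.37. Of all genes, 12.1%, 8.69% and 13% were higher at these times and 12%, 8.02% and 12.3% lower. EXO1 is the exonuclease that resects broken ends and also digests the faulty strand in mismatch repair. Its values were 0.17, 0.00 and -0.14 on the control arrays, 0.98, 0.82 and 0.86 at 8 h, 0.64, 0.66 and 0.62 at 24 h and 0.39, 0.36 and 0.18 at 48 h. No array of any treated group overlapped the control arrays, and the 3 times stood in steps downward from 8 h. EXO1 was higher by 0.88 (SE 0.08, 1.84-fold, adjusted p = 4.75e-06) at 8 h, 0.63 (adjusted p = 0.000113) at 24 h and 0.30 (adjusted p = 0.0124) at 48 h. The 48 h call was lost without control replicate 3 (adjusted p = 0.0563) and in the fit of the 2 groups alone.

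XRCC2 helps assemble the recombinase filament on single-stranded DNA. Its values were 0.02, -0.06 and 0.00 on the control arrays, 0.69, 0.75 and 0.84 at 8 h, 0.57, 0.51 and 0.61 at 24 h and 0.62, 0.50 and 0.35 at 48 h. The treated arrays were all well above control, and 48 h replicate 3 was the lowest of them. The differences were 0.78 (SE 0.07, 1.71-fold, adjusted p = 2.79e-06) at 8 h, 0.58 (adjusted p = 4.53e-05) at 24 h and 0.50 (adjusted p = 8.51e-05) at 48 h. XRCC3, a related gene of filament assembly, was higher at 8 h by 0.46 (adjusted p = 0.00186). At 24 h and 48 h XRCC3 differed from control by 0.18 (adjusted p = 0.199) and 0.20 (adjusted p = 0.135), and these passed without 48 h replicate 3 (adjusted p = 0.0468 at 24 h) and without 48 h replicate 1 (adjusted p = 0.049 at 48 h).

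RAD54L and RAD54B are translocases that drive strand exchange. RAD54L was 0.07, 0.00 and -0.17 on the control arrays, 0.70, 0.70 and 0.63 at 8 h, 0.35, 0.39 and 0.42 at 24 h and 0.62, 0.50 and 0.57 at 48 h. The 24 h arrays were the lowest of the treated groups and still clear of control, and the 48 h arrays lay between them and the 8 h arrays. RAD54L was higher by 0.71 (SE 0.06, 1.64-fold, adjusted p = 3.1e-06) at 8 h, 0.42 (adjusted p = 0.000354) at 24 h and 0.60 (adjusted p = 1.15e-05) at 48 h. For RAD54B the differences were 0.61 (adjusted p = 0.000239) at 8 h, 0.40 (adjusted p = 0.00723) at 24 h and 0.45 (adjusted p = 0.00218) at 48 h. RAD51AP1, which stimulates joint formation between DNA strands, was 0.16, 0.00 and -0.13 on the control arrays, 0.65, 0.43 and 0.48 at 8 h, 0.51, 0.73 and 0.35 at 24 h and 0.66, 0.56 and 0.42 at 48 h. All 9 treated arrays lay above the 3 control arrays, with no order among the times. Its differences were 0.51 (SE 0.10, 1.42-fold, adjusted p = 0.00248) at 8 h, 0.52 (adjusted p = 0.00323) at 24 h and 0.54 (adjusted p = 0.0016) at 48 h.

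BRCA1 rose by almost the same amount at each time. It forms a ubiquitin ligase with BARD1 and directs broken ends to recombination. BRCA1 values were 0.11, 0.00 and -0.12 on the control arrays, 0.67, 0.69 and 0.63 at 8 h, 0.65, 0.70 and 0.67 at 24 h and 0.75, 0.72 and 0.50 at 48 h. The 9 treated arrays lay between 0.50 and 0.75 and none reached down to the controls. The differences were 0.67 (SE 0.07, 1.59-fold, adjusted p = 1.96e-05) at 8 h, 0.68 (adjusted p = 2.42e-05) at 24 h and 0.66 (adjusted p = 1.82e-05) at 48 h. Between 48 h and 8 h the difference was -0.01, with a 95% interval of -0.16 to 0.15. BRCA1 has a pseudogene copy, and probes shared with it would measure both.

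The partners of BRCA1 had smaller differences, which were not tested against its own. BARD1 was higher at 8 h by 0.29 (SE 0.09, 1.22-fold, adjusted p = 0.0303), a call lost without control replicate 2, control replicate 3 or 8 h replicate 1 (adjusted p = 0.0672, 0.118 and 0.128). Centring each array on its median lost the call too. At 24 h BARD1 differed by 0.22 (adjusted p = 0.125) and at 48 h by 0.04 (adjusted p = 0.845). PALB2, which bridges BRCA1 and BRCA2, was higher at 8 h by 0.25 (SE 0.06, 1.19-fold, adjusted p = 0.011), and without control replicate 3 its adjusted p was 0.0509. Its differences were 0.00 (adjusted p = 0.984) at 24 h and 0.12 (adjusted p = 0.236) at 48 h. The helicase BRIP1 was the 1 recombination gene not called at 8 h, at 0.18 (adjusted p = 0.263). It was higher at 24 h by 0.40 (SE 0.10, 1.32-fold, adjusted p = 0.0146), lost without control replicate 3 (adjusted p = 0.0611), and stood at 0.23 (adjusted p = 0.116) at 48 h, which passed without 48 h replicate 3 (adjusted p = 0.00594).

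BLM, the helicase mutated in Bloom syndrome, and RMI1 work with a topoisomerase to take apart joined recombination intermediates. BLM was 0.04, 0.00 and -0.18 on the control arrays, 0.78, 0.61 and 0.61 at 8 h, 0.49, 0.64 and 0.50 at 24 h and 0.57, 0.50 and 0.32 at 48 h. Every treated array lay above every control array, and 48 h replicate 3 was again the lowest treated one. BLM was higher by 0.71 (SE 0.08, 1.64-fold, adjusted p = 2.46e-05) at 8 h, 0.59 (adjusted p = 0.000183) at 24 h and 0.51 (adjusted p = 0.000339) at 48 h. RMI1 took another course, with 0.19, 0.00 and -0.23 on the control arrays, 0.81, 0.56 and 0.65 at 8 h, 0.30, 0.58 and 0.19 at 24 h and 0.13, 0.17 and -0.29 at 48 h. At 8 h the arrays were clear of control, while those at 24 h touched the control range and those at 48 h spread through it. RMI1 was higher by 0.69 (SE 0.14, 1.61-fold, adjusted p = 0.00247) at 8 h, then differed by 0.37 (adjusted p = 0.0909) at 24 h and 0.02 (adjusted p = 0.96) at 48 h. Without 48 h replicate 3 the 24 h difference passed (adjusted p = 0.0301).

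**Figure D3:**
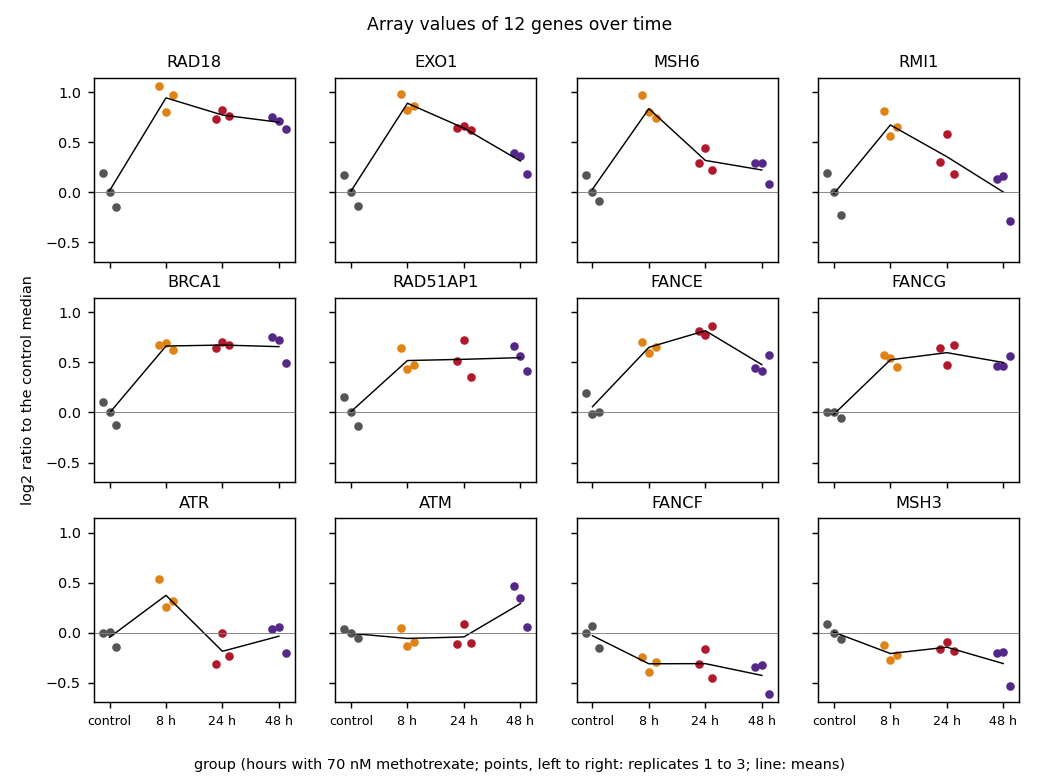
Log2 values of 12 of the genes on the single arrays (points) with the group means (lines) in control and after 8 h, 24 h and 48 h of methotrexate. RAD18, EXO1, MSH6 and RMI1 have their highest mean at 8 h and FANCE at 24 h. BRCA1 and RAD51AP1 stay level from 8 h, and ATM is raised at 48 h.

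In the Fanconi core complex the subunits parted. Of the 7 measured, 3 were higher and 1 lower at 8 h, 2 were higher and 0 lower at 24 h, and 2 were higher and 1 lower at 48 h, with medians of 0.32, 0.13 and -0.02. The shares of all genes were 12.1%, 8.69% and 13% higher and 12%, 8.02% and 12.3% lower, so 1 lower of 7 is near them. FANCE, the subunit that contacts FANCD2, was 0.19, -0.02 and 0.00 on the control arrays, 0.71, 0.60 and 0.65 at 8 h, 0.81, 0.77 and 0.86 at 24 h and 0.44, 0.42 and 0.58 at 48 h. The 24 h arrays were the highest and the 48 h arrays the lowest of the treated groups, all of them above control. The difference of FANCE between 24 h and 8 h, 0.17 (adjusted p = 0.102), was not called. Against control FANCE was higher by 0.59 (SE 0.07, 1.51-fold, adjusted p = 2.39e-05) at 8 h, 0.76 (SE 0.07, 1.69-fold, adjusted p = 4.23e-06) at 24 h and 0.42 (adjusted p = 0.000348) at 48 h. FANCG, which pairs with FANCA, was 0.01, 0.00 and -0.06 on the control arrays, 0.58, 0.55 and 0.45 at 8 h, 0.64, 0.48 and 0.67 at 24 h and 0.47, 0.47 and 0.57 at 48 h. The treated arrays lay between 0.45 and 0.67, far from the controls and without a trend in time. FANCG was higher by 0.54 (SE 0.06, 1.46-fold, adjusted p = 2.33e-05), 0.61 (SE 0.06, 1.53-fold, adjusted p = 1.23e-05) and 0.52 (adjusted p = 3.11e-05) at 8 h, 24 h and 48 h.

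FANCF, the adaptor of the core complex, went the other way. Its values were 0.00, 0.06 and -0.15 on the control arrays, -0.24, -0.39 and -0.30 at 8 h, -0.31, -0.16 and -0.45 at 24 h and -0.35, -0.32 and -0.61 at 48 h. All 9 treated arrays lay below all control arrays, though 24 h replicate 2 was close to the lowest control. FANCF was lower, at -0.40 (SE 0.09, 0.76-fold, adjusted p = 0.00555) at 48 h and -0.28 (adjusted p = 0.0394) at 8 h, and differed by -0.28 (adjusted p = 0.0537) at 24 h. The 8 h call was lost without any of 8 h replicates 2 and 3, control replicates 1 and 2 and 24 h replicate 1, with an adjusted p of up to 0.155. The 24 h difference passed without 24 h replicate 2, control replicate 3 or 48 h replicate 3 (adjusted p = 0.024, 0.0364 and 0.0178).

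The catalytic part of the core complex holds FANCB and FANCL, the ubiquitin ligase. FANCB was higher at 8 h by 0.50 (SE 0.13, 1.42-fold, adjusted p = 0.0139), which was lost without 8 h replicate 1 (adjusted p = 0.0643) or control replicate 3 (adjusted p = 0.0528). At 24 h and 48 h FANCB differed by 0.35 (adjusted p = 0.0976) and 0.32 (adjusted p = 0.108), and both passed without 48 h replicate 3 (adjusted p = 0.0229 and 0.00671). FANCL, FANCC and the translocase FANCM, which anchors the complex on DNA, were not called against control at any time. Their differences at 8 h were 0.18 (adjusted p = 0.172), -0.04 (adjusted p = 0.693) and 0.32 (adjusted p = 0.06). Without 48 h replicate 3 the adjusted p at 8 h was 0.0433 for FANCL and 0.0223 for FANCM. FANCM also passed at 8 h without 24 h replicate 2 (adjusted p = 0.046) or 48 h replicate 1 (adjusted p = 0.0359).

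In the group of FANCI, RAD18 and USP1, 2 of 3 were higher at each time, with medians of 0.44, 0.44 and 0.47. Among all genes, 12.1%, 8.69% and 13% were higher at 8 h, 24 h and 48 h. RAD18 had the largest rise of the 29 genes at 8 h. It is the ubiquitin ligase that marks PCNA at stalled forks and so calls in translesion polymerases. RAD18 was 0.19, 0.00 and -0.15 on the control arrays, 1.06, 0.80 and 0.97 at 8 h, 0.74, 0.82 and 0.76 at 24 h and 0.75, 0.71 and 0.63 at 48 h. The treated arrays were between 0.63 and 1.06 and the controls between -0.15 and 0.19, so the groups were far apart. RAD18 was higher by 0.93 (SE 0.08, 1.90-fold, adjusted p = 4.58e-06) at 8 h, 0.76 (SE 0.08, 1.69-fold, adjusted p = 3.51e-05) at 24 h and 0.68 (SE 0.08, 1.61-fold, adjusted p = 4.86e-05) at 48 h. FANCI, the measured partner of the FANCI-FANCD2 pair, was 0.00, 0.06 and -0.04 on the control arrays, 0.49, 0.44 and 0.41 at 8 h, 0.40, 0.47 and 0.46 at 24 h and 0.52, 0.51 and 0.41 at 48 h. Its 9 treated arrays lay within 0.40 to 0.52, well above control. FANCI was higher by 0.44 (SE 0.05, 1.36-fold, adjusted p = 2.8e-05) at 8 h, 0.44 (adjusted p = 4.42e-05) at 24 h and 0.47 (adjusted p = 1.42e-05) at 48 h.

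USP1 removes the ubiquitin that the core complex and RAD18 attach. It was not called against control, with differences of 0.24 (adjusted p = 0.0601) at 8 h, 0.16 (adjusted p = 0.26) at 24 h and -0.16 (adjusted p = 0.233) at 48 h. Without 48 h replicate 3 the 8 h difference passed (adjusted p = 0.00571). Its values were 0.09, 0.00 and 0.00 on the control arrays, 0.37, 0.17 and 0.27 at 8 h, 0.18, 0.25 and 0.13 at 24 h and -0.02, -0.01 and -0.36 at 48 h. The 48 h arrays lay below every control array, 2 of them barely so, and those at 8 h lay above every control array.

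Of the 3 measured mismatch repair genes, 1 was higher at 8 h and 1 at 24 h, and 1 was lower at 48 h, with medians of 0.19, -0.05 and -0.11. For all genes the shares were 12.1% higher at 8 h, 8.69% higher at 24 h and 12.3% lower at 48 h. MSH6 is the subunit of the sensor that reads single mismatches. It was 0.18, 0.00 and -0.09 on the control arrays, 0.97, 0.80 and 0.74 at 8 h, 0.29, 0.44 and 0.22 at 24 h and 0.29, 0.29 and 0.09 at 48 h. The 8 h arrays stood far above all other arrays, the 24 h arrays were still clear of control, and the 48 h arrays overlapped it. MSH6 was higher by 0.80 (SE 0.09, 1.75-fold, adjusted p = 2.25e-05) at 8 h and 0.29 (adjusted p = 0.039) at 24 h, and differed by 0.19 (adjusted p = 0.139) at 48 h. The 24 h call was lost without any of 24 h replicates 1 and 2, control replicates 2 and 3 and 8 h replicate 2 (adjusted p = 0.0533 to 0.135). It was also lost with each array centred on its median. The 48 h difference passed without 48 h replicate 3 (adjusted p = 0.0468) and with the replicate number as a block (adjusted p = 0.0406).

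MSH3 is the subunit of the sensor that reads larger loops. It was 0.08, 0.00 and -0.07 on the control arrays, -0.13, -0.27 and -0.22 at 8 h, -0.16, -0.09 and -0.18 at 24 h and -0.20, -0.19 and -0.53 at 48 h. All 9 treated arrays lay below all control arrays, by a small margin at 24 h. MSH3 was lower at 48 h, at -0.31 (SE 0.08, 0.80-fold, adjusted p = 0.0133), and differed by -0.21 (adjusted p = 0.0871) at 8 h and -0.15 (adjusted p = 0.279) at 24 h. The 48 h call was lost without control replicate 1 (adjusted p = 0.0622) and in the fit of the 2 groups alone. The 8 h difference passed without 48 h replicate 3 (adjusted p = 0.00899). PMS2, the nuclease of mismatch repair, was 0.00, 0.06 and -0.11 on the control arrays, 0.28, 0.05 and 0.20 at 8 h, -0.08, -0.02 and -0.12 at 24 h and -0.04, -0.08 and -0.28 at 48 h. Each treated group overlapped the control arrays, with no call against control at 0.19 (adjusted p = 0.0834), -0.05 (adjusted p = 0.735) and -0.11 (adjusted p = 0.345). The 8 h difference of PMS2 passed without 48 h replicate 3 (adjusted p = 0.0348) or 8 h replicate 2 (adjusted p = 0.0368). PMS2 has many near-identical pseudogene copies, so its value is uncertain.

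Among the checkpoint kinases, 3 of 4 were higher at 8 h and 2 of 4 at 24 h and at 48 h, with medians of 0.32, 0.11 and 0.23. The shares of all genes that were higher at these times were 12.1%, 8.69% and 13%. ATR, the sensor of stalled forks, was 0.00, 0.01 and -0.15 on the control arrays, 0.54, 0.26 and 0.32 at 8 h, -0.32, -0.01 and -0.23 at 24 h and 0.03, 0.06 and -0.20 at 48 h. The 8 h arrays were above every other array, those at 24 h lay within or below the control range, and those at 48 h lay on both sides of it. ATR was higher at 8 h by 0.42 (SE 0.10, 1.34-fold, adjusted p = 0.00611), and differed by -0.14 (adjusted p = 0.409) at 24 h and 0.01 (adjusted p = 0.961) at 48 h. ATM, the sensor of broken ends, was 0.04, 0.00 and -0.06 on the control arrays, 0.05, -0.13 and -0.09 at 8 h, -0.11, 0.09 and -0.10 at 24 h and 0.46, 0.35 and 0.06 at 48 h. Replicates 1 and 2 at 48 h stood well above all other arrays, and replicate 3 lay just above the controls. ATM was higher at 48 h by 0.30 (SE 0.09, 1.23-fold, adjusted p = 0.0303), and differed by -0.05 (adjusted p = 0.784) at 8 h and -0.04 (adjusted p = 0.867) at 24 h. The 48 h call of ATM was lost without 48 h replicate 1 or 2 or any 1 of the control arrays (adjusted p = 0.0564 to 0.119). Centring each array or fitting the 2 groups alone lost it too.

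CHEK2, the kinase that ATM activates, was 0.02, 0.00 and -0.01 on the control arrays, 0.36, 0.35 and 0.36 at 8 h, 0.27, 0.24 and 0.28 at 24 h and 0.43, 0.37 and 0.29 at 48 h. Arrays of a group differed little, and no treated array overlapped control. It was higher by 0.35 (SE 0.05, 1.28-fold, adjusted p = 8.75e-05) at 8 h, 0.26 (adjusted p = 0.00146) at 24 h and 0.35 (adjusted p = 7.5e-05) at 48 h. CHEK2 too has pseudogene copies that its probes may share. CHEK1, the kinase that ATR activates, was higher by 0.29 (SE 0.07, 1.23-fold, adjusted p = 0.0109) at 8 h and 0.28 (adjusted p = 0.0201) at 24 h, and differed by 0.16 (adjusted p = 0.163) at 48 h. The 24 h call of CHEK1 was lost without 24 h replicate 2 or 3 or control replicate 2 or 3 (adjusted p = 0.0535 to 0.0688), and the 48 h difference passed without 48 h replicate 3 (adjusted p = 0.0117).

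From 8 h onward more of the genes fell than rose. At 24 h against 8 h, 1 was higher and 7 lower, where 9.99% of all genes were higher and 9.4% lower. At 48 h against 24 h, 1 was higher and 4 lower, where 5.26% of all genes were higher and 4.86% lower. At 48 h against 8 h, 1 was higher and 12 lower, where 15.3% of all genes were higher and 14.4% lower, and the median difference was -0.17, against -0.01 for all genes. These comparisons share the 8 h or 24 h arrays with each other and with those against control. Without 8 h replicate 1, 3 genes were lower at 24 h and 7 at 48 h, each against 8 h. Without 48 h replicate 3, both counts were 9. The falls that held in all 20 alternatives run (other than stricter thresholds) included ATR at -0.56 (SE 0.10, 0.68-fold, adjusted p = 0.00112) and MSH6 at -0.52 (SE 0.09, 0.70-fold, adjusted p = 0.000972) for 24 h against 8 h. RAD54L, the other 24 h fall to hold throughout, was at -0.29 (adjusted p = 0.00397). For 48 h against 8 h the larger of them were RMI1 at -0.67 (SE 0.14, 0.63-fold, adjusted p = 0.00205), MSH6 at -0.61 (SE 0.09, 0.65-fold, adjusted p = 0.000127) and EXO1 at -0.58 (SE 0.08, 0.67-fold, adjusted p = 8.64e-05).

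USP1 at -0.40 (adjusted p = 0.00292), ATR at -0.41 (adjusted p = 0.00535), PMS2 at -0.31 (adjusted p = 0.0065) and XRCC2 at -0.27 (adjusted p = 0.00609) were lower at 48 h than at 8 h as well, in all of those alternatives. In the core complex FANCE was lower at 48 h than at 24 h, at -0.34 (SE 0.07, 0.79-fold, adjusted p = 0.00533). ATM was the 1 gene higher at 48 h than at 8 h, by 0.35 (SE 0.09, 1.27-fold, adjusted p = 0.0107), and higher than at 24 h by 0.33 (adjusted p = 0.0363). The first was lost without 48 h replicate 1 (adjusted p = 0.0504) and the second without that or any of 6 other arrays (adjusted p of up to 0.137). For some other genes that rose at 8 h, the 95% interval of 48 h minus 8 h, not adjusted for the number of genes, held 0. It was -0.08 to 0.14 for FANCI, -0.10 to 0.10 for CHEK2, -0.16 to 0.10 for FANCG and -0.19 to 0.25 for RAD51AP1. It lay below 0 for others, such as BLM at -0.37 to -0.03 and FANCE at -0.31 to -0.03, whose adjusted p was 0.0708 and 0.0641. FANCE passed without 48 h replicate 3 or control replicate 1, and BLM without 48 h replicate 1. RAD18 at -0.42 to -0.06, XRCC3 at -0.45 to -0.07 and BARD1 at -0.44 to -0.06 also lay below 0 and were called.

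**Figure D4:**
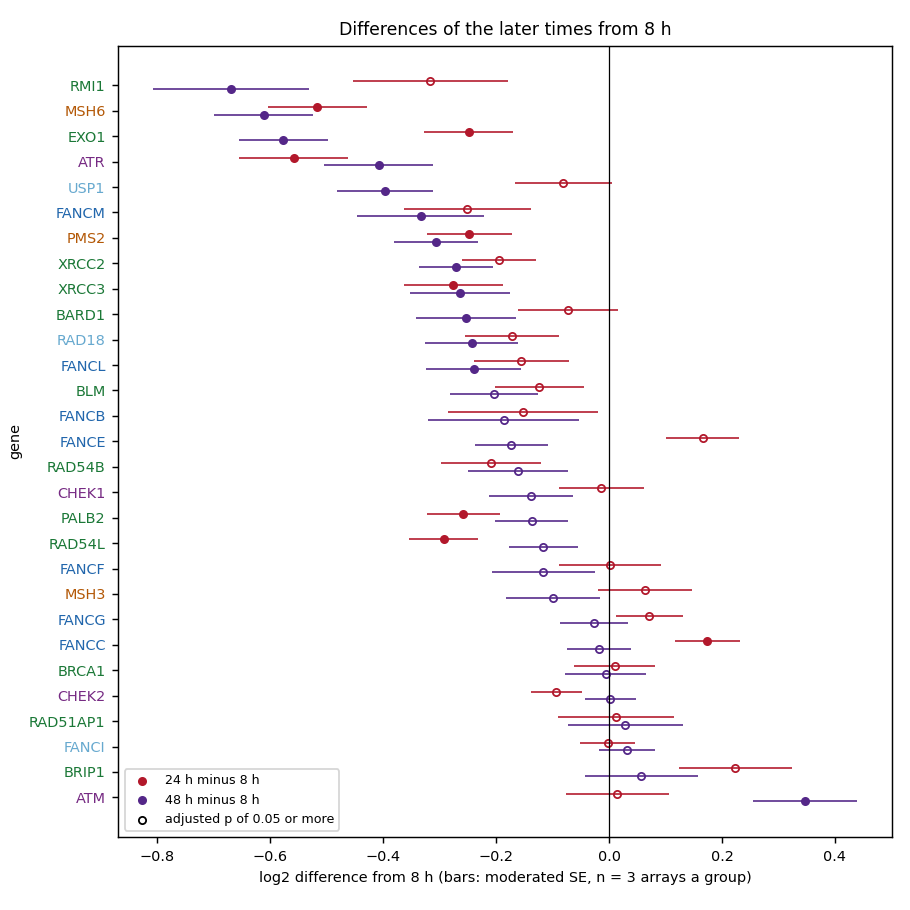
Log2 difference of 24 h and of 48 h from 8 h for each of the 29 genes, with bars for the moderated SE and filled points for called differences. RMI1, MSH6, EXO1 and ATR are among the lowest, and ATM at 48 h is the highest called point.

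Other genes of these pathways came from lists drawn up with earlier results of these data known. Their counts stand beside 12.1%, 8.69% and 13% of all genes higher at 8 h, 24 h and 48 h, and 12%, 8.02% and 12.3% lower. Of 34 further recombination genes measured, 17 were higher and 1 lower at 8 h, 10 and 1 at 24 h, and 10 and 1 at 48 h, with medians of 0.18, 0.10 and 0.07. The largest of them at 8 h were SFR1 (0.80, adjusted p = 7.02e-06), MDC1 (0.72, adjusted p = 8.8e-06) and MCM8 (0.71, adjusted p = 0.000217). SFR1 assists strand exchange, MDC1 is the scaffold at broken ends, and MCM8 is a helicase of recombination. At 24 h they were EME1 (0.87, adjusted p = 5.21e-07), SFR1 (0.78, adjusted p = 1.22e-05) and MDC1 (0.75, adjusted p = 9.1e-06). EME1, a subunit of a junction-cutting nuclease, was also first at 48 h (0.85, adjusted p = 3.74e-07), before MDC1 (0.72, adjusted p = 7.86e-06) and POLQ (0.71, adjusted p = 0.000159), the polymerase of microhomology-mediated joining.

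Of 17 further Fanconi and translesion genes, 3 were higher and 1 lower at 8 h, 5 and 3 at 24 h, and 6 and 1 at 48 h, with medians of 0.14, 0.10 and 0.07. At those times 12.1%, 8.69% and 13% of all genes were higher and 12%, 8.02% and 12.3% lower, so the 8 h counts are near those shares. DCLRE1B, a nuclease of telomeres and crosslink repair, was higher at 8 h (0.76, adjusted p = 7.69e-06), 24 h (0.67, adjusted p = 3e-05) and 48 h (0.47, adjusted p = 0.000336). WDR48, the cofactor that activates USP1, was lower at 8 h (-0.44, adjusted p = 0.00181), 24 h (-0.44, adjusted p = 0.0026) and 48 h (-0.36, adjusted p = 0.00567). FAAP100 was higher at 8 h (0.26, adjusted p = 0.00535) and FAAP24 at 24 h (0.57, adjusted p = 0.000158), both of them partners in the core complex. At 48 h the translesion polymerase POLH (0.46, adjusted p = 0.00149) and the crosslink nuclease subunit ERCC1 (0.42, adjusted p = 0.00018) were higher.

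Of 5 further mismatch repair genes measured, 3 were higher at 8 h and 2 at 24 h and at 48 h. They were the polymerase subunits POLD1 (0.58, adjusted p = 0.000853) and POLE (0.51, adjusted p = 3.44e-05), with PMS1 (0.32, adjusted p = 0.00723) at 8 h. At 48 h POLD1 was at 0.64 (adjusted p = 0.000413) and POLE at 0.51 (adjusted p = 3.04e-05). For this list and the next, 12.1%, 8.69% and 13% of all genes were higher and 12%, 8.02% and 12.3% lower at the 3 times. Among 12 further checkpoint genes, 7 were higher and 1 lower at 8 h, 7 and 1 at 24 h, and 5 and 0 at 48 h. CLSPN, the adaptor that lets ATR reach CHEK1, had the largest rise of this list at 8 h (1.13, SE 0.11, 2.19-fold, adjusted p = 9.44e-06) and was at 0.71 (adjusted p = 0.000656) and 0.54 (adjusted p = 0.0027) later. The phosphatase CDC25A was next at 8 h (1.01, adjusted p = 1.42e-07) and was at 0.60 (adjusted p = 1.8e-05) at 24 h. TIMELESS and TIPIN travel together with the fork. TIPIN was among the largest at 8 h (0.69, adjusted p = 3.21e-06), and TIMELESS at 24 h (0.84, adjusted p = 1.68e-05) and 48 h (0.75, adjusted p = 2.36e-05). RAD9A, of the clamp that helps activate ATR, was higher at 48 h (0.61, adjusted p = 0.000174).

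End joining, the other route for double-strand breaks, had 9 genes measured, with 1 higher and 1 lower at 8 h, 3 and 1 at 24 h, and 1 and 4 at 48 h. All genes had 12.1%, 8.69% and 13% higher and 12%, 8.02% and 12.3% lower at these times, so the 8 h counts are near those shares. PRKDC, the catalytic subunit of the DNA-dependent protein kinase, was higher at 8 h (0.45, adjusted p = 0.0083). DCLRE1C, the Artemis nuclease, was lower at 8 h (-0.31, adjusted p = 0.0111), 24 h (-0.27, adjusted p = 0.0321) and 48 h (-0.31, adjusted p = 0.0106), and the ligase partner XRCC4 at 48 h (-0.39, adjusted p = 0.0132). The gap-filling polymerase POLM was higher at 24 h (0.53, adjusted p = 4.51e-05) and 48 h (0.48, adjusted p = 6.49e-05). NHEJ1 (0.42, adjusted p = 2.94e-05) and POLL (0.28, adjusted p = 0.0111) were higher at 24 h. The difference between end joining and recombination was not tested.

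The median of the G1/S markers lay above control at each time, as that of the repair genes did. That of the G2/M markers did not. Of 30 genes of the G1/S transition and replication, 30 were higher at 8 h, 28 at 24 h and 22 at 48 h, with medians of 0.55, 0.45 and 0.32, and 1 was lower, at 48 h. Of 24 genes of G2/M and mitosis, 4 were higher and 3 lower at 8 h, 2 and 13 at 24 h, and 5 and 6 at 48 h, with medians of -0.01, -0.21 and 0.01. Among all genes, 12.1%, 8.69% and 13% were higher and 12%, 8.02% and 12.3% lower at 8 h, 24 h and 48 h. On 48 h replicate 3 the median of the G1/S list was 0.30, against 0.34 and 0.32 on the other 48 h arrays. That of the G2/M list was -0.10 on it, against 0.07 and 0.08, and that of the repair genes 0.06, against 0.33 and 0.35. The part of cell cycle phase in the rise of the repair genes was not tested.

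**Figure D5:**
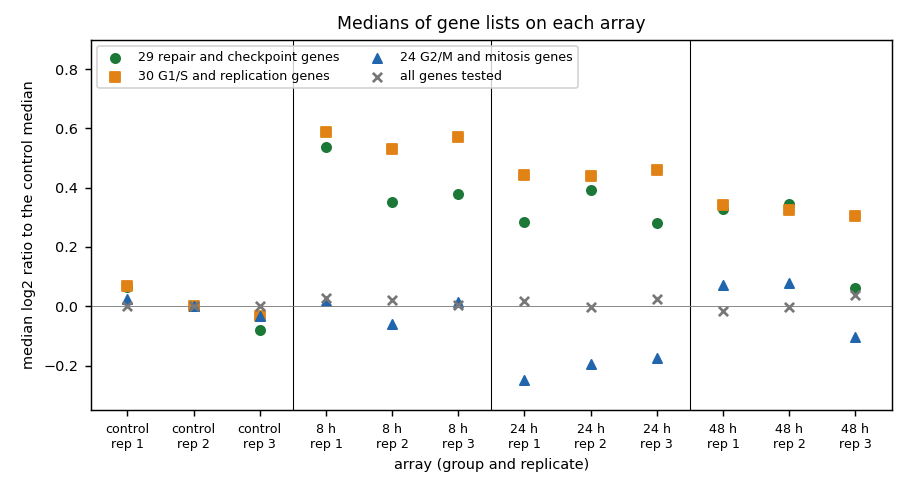
Median log2 value over each gene list on each array (points), for the repair genes and the G1/S and G2/M marker lists in control and after 8 h, 24 h and 48 h. The G1/S medians lie between 0.53 and 0.59 at 8 h, and the repair gene median of 48 h replicate 3 is 0.06.

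The values are relative to control, so the levels of cell type markers in HT29 could not be checked, though their changes could. Of 10 markers of colon epithelium, 1 was higher and 1 lower at 8 h, 2 and 1 at 24 h, and 1 and 1 at 48 h. Of all genes, 12.1%, 8.69% and 13% were higher at these times and 12%, 8.02% and 12.3% lower. None of 9 fibroblast markers was called at any of the 3 times, and limma's unadjusted p was under 0.05 for 1 of them, at 24 h. Of 6 leukocyte markers CD68, a lysosomal protein also made outside leukocytes, was the 1 called, at 0.35 (adjusted p = 0.0011) at 8 h, 0.85 (adjusted p = 1.14e-06) at 24 h and 1.08 (adjusted p = 8.37e-08) at 48 h. The part of CD68's change in these results was not tested.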

How the data were processed

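RNA of 12 HT29 cultures was hybridised to Affymetrix HuGene 1.0 ST arrays. RMA and hg19 are named per the submitters' processing notes. The deposited values are log2 values, and the median of the control columns is 0 in every one of 28869 probe sets. No label or header names this centring or the log base, which was taken from RMA. Probe sets were named from the platform annotation. Those with 1 gene symbol were used (19310 probe sets, 18377 genes), and a gene's probe sets were averaged. limma 3.58.1 (R 4.3.3) fitted group means over all 12 arrays (8 residual and 4.71 prior degrees of freedom), and calls are two-sided at an adjusted p under 0.05 over all genes. The steps were tested on simulated data. Promoters were searched with Python 3.11.15.

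The members and gene lists were chosen with earlier results of these data known. All 33 members are accounted for. Array values were printed for called members with the 8 largest differences in each comparison with control and at least 2 members a role, and other pathway genes for the 3 largest called differences a list and comparison. Alternatives were a replicate block, array weights, array centring, a robust prior, 2-group fits, other probe set rules, a spread filter, stricter thresholds and leaving out each array.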

Additional observations from a re-analysis of the deposited data

Results flagged for a closer look

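For some of the genes the response differed between times of treatment by a test of the difference itself. The values come from the limma fit of all 12 arrays, with 3 arrays a group and adjusted p over 18377 genes. No cause was tested. At 24 h against 8 h, the lower genes were ATR at -0.56 (adjusted p = 0.00112), MSH6 at -0.52 (adjusted p = 0.000972), RAD54L at -0.29 (adjusted p = 0.00397), XRCC3 at -0.28 (adjusted p = 0.0446), PALB2 at -0.26 (adjusted p = 0.0123), EXO1 at -0.25 (adjusted p = 0.042) and PMS2 at -0.25 (adjusted p = 0.0341). FANCC was higher, at 0.17 (adjusted p = 0.0485). ATR, MSH6 and RAD54L passed in every alternative run other than stricter thresholds. PALB2 missed without 24 h replicate 1 (adjusted p = 0.0604) or 8 h replicate 1 (adjusted p = 0.0543). XRCC3 missed without any 1 of the 24 h or 8 h arrays, 48 h replicate 2 or control replicate 1 or 3 (adjusted p of up to 0.156). EXO1 missed without any 1 of the 24 h or 8 h arrays, 48 h replicate 2 or control replicate 2 (up to 0.155). PMS2 did so without replicate 1 or 3 of either group (up to 0.136), and FANCC without any 1 of the 24 h arrays, 8 h replicate 2 or 3, 48 h replicate 2 or control replicate 1 or 2 (up to 0.196). EXO1, PMS2 and FANCC missed with each array centred as well. FANCC also missed with a replicate block, a robust prior or the 2 groups alone.

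At 48 h against 24 h, FANCE was lower, at -0.34 (adjusted p = 0.00533), as were EXO1 at -0.33 (adjusted p = 0.0182), USP1 at -0.32 (adjusted p = 0.0333) and FANCC at -0.19 (adjusted p = 0.0499), and ATM was higher by 0.33 (adjusted p = 0.0363). FANCE passed in each of those alternatives. EXO1 missed without any 1 of the 24 h arrays (adjusted p of up to 0.0594), USP1 without any 1 of them or 48 h replicate 3 (adjusted p of up to 0.102), and FANCC without any 1 of the 24 h or control arrays or replicate 2 or 3 of the 8 h or 48 h group (adjusted p of up to 0.144). ATM missed without 24 h replicate 1 or 3, 48 h replicate 1 or 2, 8 h replicate 3 or control replicate 1 or 2 (adjusted p of up to 0.137). USP1, FANCC and ATM missed with each array centred or the 2 groups alone as well. FANCC also missed with a replicate block, a robust prior or the other probe set rules.

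At 48 h against 8 h, the lower genes that passed in each of those alternatives were RMI1 at -0.67 (adjusted p = 0.00205), MSH6 at -0.61 (adjusted p = 0.000127), EXO1 at -0.58 (adjusted p = 8.64e-05), ATR at -0.41 (adjusted p = 0.00535), USP1 at -0.40 (adjusted p = 0.00292), PMS2 at -0.31 (adjusted p = 0.0065) and XRCC2 at -0.27 (adjusted p = 0.00609). FANCM at -0.33 (adjusted p = 0.0394), XRCC3 at -0.26 (adjusted p = 0.0385), BARD1 at -0.25 (adjusted p = 0.0473), RAD18 at -0.24 (adjusted p = 0.0411) and FANCL at -0.24 (adjusted p = 0.0476) were lower too and missed without 8 h replicate 1, with adjusted p of up to 0.174, 0.158, 0.205, 0.162 and 0.176 over all arrays left out. FANCM and BARD1 also missed without 48 h replicate 2 or 3 or control replicate 1 or 2, and BARD1 without 24 h replicate 3. XRCC3 also missed without 8 h replicate 2 or 3, 48 h replicate 1 or 2 or 24 h replicate 1. RAD18 also missed without any 1 of the 48 h arrays, 8 h replicate 3, 24 h replicate 1 or 3 or control replicate 2. FANCL also missed without 48 h replicate 2 or 3, 8 h replicate 3 or any 1 of the 24 h or control arrays. With each array centred BARD1, RAD18, FANCL and FANCM missed, and with the 2 groups alone BARD1, XRCC3, FANCL and FANCM did. ATM was higher by 0.35 (adjusted p = 0.0107) and missed without 48 h replicate 1 (adjusted p = 0.0504).

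A signal also appeared in probe sets that no comparison above used. In the annotation, 8 probe sets name PMS2 together with its pseudogene copies. They name 10 to 13 genes each, 10 of them common to all 8, so they are not separate observations. At 48 h all 8 were higher than control, by 0.17, 0.30, 0.25, 0.19, 0.25, 0.29, 0.27 and 0.25, adjusted over the 1752 probe sets that name several genes, 15.7% of which were higher at 48 h. At 8 h 1 of them was higher, by 0.14 (adjusted p = 0.0335), and at 24 h none was, with differences of 0.06 to 0.14. The probe set that names PMS2 alone differed by -0.11 (adjusted p = 0.345) at 48 h. Which copies the shared probe sets measure was not tested.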

How the results depend on the processing

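With 3 arrays a group, the counts against control held to within 1.5 times for higher genes under every setting that kept the threshold, and the small counts moved. With the replicate number as a block, lower genes were 2 at 8 h and 1 at 24 h, none was higher at 24 h against 8 h, and higher genes were 22, 16 and 14 at 8 h, 24 h and 48 h. Over all groups the numbers were not taken to pair the arrays. Same-numbered arrays of different groups correlated at -0.452 to 0.472, over 0.1 in 11 of 18 pairs, against -0.674 to 0.602 and 14 of 36 for other pairs. Between 48 h and control alone, all 3 same-numbered pairs were over 0.1 (0.349, 0.117 and 0.458), and there the block changed 1 call, that of MSH6. With array weights, higher genes were 22 at 8 h, 18 at 24 h and 19 at 48 h, so the 48 h count was no longer the lowest. That fit gave 48 h replicate 3 a weight of 0.199, against 0.797 and 6.52 for replicates 1 and 2. Lower genes in it were 2 at 8 h and 3 at 24 h, and 3 were higher and 11 lower at 24 h against 8 h. There were 5 higher at 48 h against 24 h, and 2 higher at 48 h against 8 h. Centring each array gave 0 higher at 24 h against 8 h, and 0 higher and 2 lower at 48 h against 24 h. A robust prior gave 0 higher at 24 h against 8 h, and leaving out genes of small spread gave 1 lower at 24 h and 0 higher at 24 h against 8 h. Fitting the 2 groups alone gave 2, 1 and 1 lower at 8 h, 24 h and 48 h, and 0 higher and 2 lower at 48 h against 24 h.

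An adjusted p under 0.01 left 0 lower at 8 h and 1 at 48 h, 0 higher and 3 lower at 24 h against 8 h, 0 and 1 at 48 h against 24 h, 0 and 7 at 48 h against 8 h, and 17 by the F test. A fold of at least 1.5 left 10, 6 and 3 higher and 0 lower at 8 h and 48 h, none at 24 h against 8 h or 48 h against 24 h, and 0 higher and 2 lower at 48 h against 8 h. Leaving out 1 array at a time gave 17 to 24 higher and 0 to 2 lower at 8 h, 12 to 18 and 0 to 1 at 24 h, and 11 to 17 and 1 to 2 at 48 h. It gave 0 to 2 higher and 3 to 9 lower at 24 h against 8 h, 0 to 2 and 1 to 4 at 48 h against 24 h, 0 to 1 and 7 to 11 at 48 h against 8 h, and 20 to 28 by the F test. Of the single genes' values, 231 lost a call, 80 gained one and 0 reversed with a call in either fit, over all settings. A further 72 changed sign with no call in either fit, and 3439 stayed the same. The losses include those under the stricter thresholds, which can only remove calls. The cause of the other changes was not tested. Signal over background was not analysed, so no dim probe set was left out.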

Other observations

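Several of the repair genes share a promoter region with a neighbour transcribed the other way. The pairs were looked for after the values were seen, as starts less than 1000 bases apart on opposite strands in RefSeq's GRCh38.p14. Any listed start of a gene could form a pair, so NBR1 and NBR2 need not lie at the same start of BRCA1. Of 13 named pairs, 9 had both genes measured, for 8 repair genes. At 8 h, when 12.1% of all genes were higher and 12% lower, the repair gene was higher in 8 of the 9 pairs, as the results on these genes already show. BRCA1 is counted with NBR1 and with NBR2, so these pairs hold 7 of the 8 genes. The neighbour was higher in 1 of the 9 pairs, RAD51AP1 with FERRY3 (0.27, adjusted p = 0.0273). The neighbour was lower in 3. NBR1, an autophagy receptor, was lower, at -0.50 (adjusted p = 1.61e-05), as was NBR2 at -0.40 (adjusted p = 0.00721), while BRCA1 was higher by 0.67. NBR1 was also lower at 24 h, at -0.19 (adjusted p = 0.023), and at 48 h, at -0.23 (adjusted p = 0.00537), where NBR2 differed by 0.04 (adjusted p = 0.842) and 0.15 (adjusted p = 0.307). At 8 h MOSPD2 was lower, at -0.45 (adjusted p = 0.0199), while FANCB was higher by 0.50.

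At 48 h ATM was higher by 0.30, while NPAT, the histone gene activator across its start, differed by -0.10 (adjusted p = 0.552). Besides NBR1, the neighbour called at 48 h was HNRNPK, an RNA-binding protein gene next to RMI1, which was lower, at -0.23 (adjusted p = 0.0155), while RMI1 differed by 0.02. The difference within a pair was not tested.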
